A study of Mus musculus with 44 samples.

Results

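The data described here compare mice that had undergone extinction training (EXT) with mice that had only heard tones (TA), by sequencing the mRNA bound to tagged ribosomes (TRAP-seq). Of the 44 mice in the series, the 26 labelled EXT (10 mice) or TA (16 mice) in batch 1, 2 or 5 were taken, since these 3 batches hold both groups. The EXT mice of batches 3 and 4 were left out because those batches hold no TA mouse. Batch 1 held 2 EXT and 4 TA mice, batch 2 held 3 and 5, and batch 5 held 5 and 7. Each library is 1 mouse by its labels, with 4 female and 6 male EXT mice and 6 female and 10 male TA mice.

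All mice were F1 animals of 10 to 16 weeks, heterozygous for Cre recombinase under the control of Crh and for a ribosomal protein L10a fused to eGFP that is switched on by Cre. The label gives the tissue as central amygdala, and the tissue was taken as 1 mm punches on both sides. By this design, tagged ribosomes are made in cells in which the Crh driver is or was active, and the punch was centred on the amygdala. The series holds no library of unbound RNA and no mouse without Cre. How much RNA from other cells was carried over was therefore not tested. Every mouse was habituated on 2 days. TA mice then heard 5 tones without shock, whereas EXT mice received those tones paired with shocks and, on the following day, heard 30 unpaired tones in a different context. In both groups each tone lasted 30 s at 6000 Hz, and each shock was of 0.65 mA for 0.5 s. EXT mice also spent the intervening night in the animal facility. By the study's account, mice were killed 2 h after their last session, which was longer in EXT mice because of its 30 tones. Prior shock, number of tones, session length, context, day and housing therefore all separate the groups, and their contributions cannot be told apart.

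Corticotropin-releasing hormone, encoded by Crh, is a stress peptide that also marks a population of GABA neurons of the central amygdala, a structure required for learned fear. Neuronal activity switches on immediate early genes within minutes, through kinases that act on CREB and the serum response factor at their promoters. Some of these genes (Fos, Junb, Egr1) encode transcription factors, and others act in the cytoplasm or at synapses: Dusp1 is a phosphatase that switches MAP kinases off, and Arc promotes removal of AMPA receptors from the synapse. Shortage of amino acids acts through another factor, ATF4, which raises aminoacyl-tRNA synthetases and asparagine synthetase (Asns). Glucocorticoids act through a receptor held in the cytosol by Hsp90, Stip1 and the FKBP cochaperones.

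The promoters of 3 activity genes and of Aars and Asns, known ATF4 targets, are shown because these 5 genes fell in EXT mice. Each sequence is the 250 bases before the start site, 5′ to 3′ on the gene's strand, from RefSeq on GRCm38.p6, with capitals marking TGACG, the core of the CREB site, in Fos, Dusp1 and Junb, and TGATGNAA, the ATF4 element, in Aars and Asns, on either strand.
Fos (chr12:85473640-85473889, plus strand): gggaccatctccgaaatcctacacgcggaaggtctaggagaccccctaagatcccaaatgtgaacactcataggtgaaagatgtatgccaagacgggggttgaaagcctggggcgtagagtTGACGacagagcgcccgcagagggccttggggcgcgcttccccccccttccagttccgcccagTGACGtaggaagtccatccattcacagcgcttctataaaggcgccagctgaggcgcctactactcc
Dusp1 (chr17:26508473-26508722, minus strand): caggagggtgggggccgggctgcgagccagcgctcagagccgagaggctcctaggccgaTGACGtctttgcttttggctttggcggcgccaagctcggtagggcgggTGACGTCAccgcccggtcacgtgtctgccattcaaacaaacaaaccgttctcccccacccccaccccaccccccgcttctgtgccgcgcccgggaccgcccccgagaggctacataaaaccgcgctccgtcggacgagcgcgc
Junb (chr8:84978749-84978998, minus strand): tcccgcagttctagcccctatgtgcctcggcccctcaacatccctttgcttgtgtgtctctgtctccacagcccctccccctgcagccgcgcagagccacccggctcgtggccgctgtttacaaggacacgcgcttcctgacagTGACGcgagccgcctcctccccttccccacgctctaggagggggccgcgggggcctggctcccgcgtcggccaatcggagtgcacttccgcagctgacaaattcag
Aars (chr8:111033592-111033841, plus strand): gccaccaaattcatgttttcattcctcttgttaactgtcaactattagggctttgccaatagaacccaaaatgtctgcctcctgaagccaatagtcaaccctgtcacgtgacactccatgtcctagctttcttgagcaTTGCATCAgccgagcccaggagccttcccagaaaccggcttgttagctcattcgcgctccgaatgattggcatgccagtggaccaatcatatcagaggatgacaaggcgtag
Asns (chr6:7693210-7693459, minus strand): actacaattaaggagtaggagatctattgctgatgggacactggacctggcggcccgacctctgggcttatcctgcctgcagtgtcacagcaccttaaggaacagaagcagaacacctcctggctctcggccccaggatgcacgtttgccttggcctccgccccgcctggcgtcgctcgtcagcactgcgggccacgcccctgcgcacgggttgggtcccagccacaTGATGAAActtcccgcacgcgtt

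TGACG lay 129 and 66 bases before the start of Fos and 106 bases before that of Junb. In Dusp1 it lay at 191 and 143 bases, the latter within the full palindrome TGACGTCA, which holds the core on both strands. The ATF4 element lay 112 bases before the start of Aars, where it reads on the opposite strand, and 23 bases before that of Asns. Asns also holds TGACG on the opposite strand, which is left in lower case. Of 32851 mouse promoters of this length in the RefSeq table, 17.8% held TGACG, 1.55% held TGACGTCA and 3.45% held TGATGNAA. Of the 15 immediate early genes found there, 9 held TGACG, 3 held TGACGTCA and 1 held TGATGNAA. Of 15 cytosolic aminoacyl-tRNA synthetase genes, 6 held TGACG, 0 held TGACGTCA and 3 held TGATGNAA. A gene was counted if any of its promoters in that table held the motif, so these counts are not fully comparable with the shares over single promoters. A letter match is a description of the sequence and does not show that a factor binds there.

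The deposited table holds voom log2 cpm (reads of a gene scaled to library size) for 8203 genes that passed the authors' minimum level in every mouse. Library sizes were 13054305 to 16787593 reads (median 15468096) in EXT and 14649837 to 20440351 (median 18015590) in TA mice, and in batch 2 the ranges did not overlap, so that there library size and group cannot be told apart. The GABA markers Gad1 and Gad2 were at 8.18 to 9.78 and 8.49 to 9.51 log2 cpm over the 26 mice and Crh at 3.49 to 7.17, while the cortical and basolateral glutamatergic marker Slc17a7 was also present at 3.97 to 7.78. Ttr, made by choroid plexus, ranged from 3.48 to 15.29. The mean of the 4 choroid plexus markers was 4.84 to 11.6 in EXT and 5.07 to 10.8 in TA mice, but its direction varied by batch. In batch 1 it was 4.84 to 8.24 in EXT against 5.07 to 10.2 in TA mice. The ranges were 9.27 to 11.6 against 6.88 to 10.3 in batch 2 and 5.73 to 10.3 against 8.58 to 10.8 in batch 5. Genes under that minimum in any mouse are not in the table, even if they were detected, so a missing marker cannot be read as absent. EXT replicate 1 (batch 2) stood apart, with a mean of the 8 mitochondrially encoded transcripts of 11.7 log2 cpm against 3.50 to 9.03 in the other 25 mice and with the lowest Crh. In bulk samples of this kind, fewer cells of a type and less RNA per cell cannot be told apart.

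EXT and TA mice differed in transcripts of activity, stress, translation and metabolism, by modest amounts. With batch and sex in the model (limma), 409 of 8203 genes (4.99%) passed an adjusted p of 0.05, 176 of them higher (2.15%) and 233 lower (2.84%) in EXT. Calls in every family below are to be read beside these shares, 2.15% that rose and 2.84% that fell. The shares varied with transcript length, and the counts by length given below apply as well. An unadjusted p under 0.05 was reached by 956 genes that were higher (11.7%) and 1100 that were lower (13.4%). The 409 genes differed by 0.20 to 0.89 on the log2 scale (median 0.35), with a median SE of 0.092. Over all genes the median difference was 0.01 and 51.6% were higher in EXT. Fos led them, and it was followed by Acly and Iars, so the smallest p-values belonged to an activity gene, a lipid synthesis gene and a tRNA synthetase.

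Batches were compared by their own EXT minus TA differences. Of the 409 genes, 404 had the same sign in batches 1, 2 and 5, where over all genes 19.3% were lower and 19.2% higher in EXT in every batch. The 409 were chosen by the fit of these same batches together. A like sign in each batch therefore follows largely from that choice and is not separate support. In 1 gene, Acly, every EXT mouse lay below every TA mouse of its batch in all 3 batches (0.0122% of genes).

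The number of genes past the threshold rested on single mice. The count of 409 became 3 without TA replicate 2, EXT replicate 10 or EXT replicate 13, and 835 without EXT replicate 14. It was 4 to 9 without TA replicate 5, 6, 8, 10, 12 or 15 or EXT replicate 6 or 16, 69 to 223 without TA replicate 1, 4, 7 or 9 or EXT replicate 1 (128), and 633 and 671 without TA replicate 16 and EXT replicate 7. In this list 236 genes had an adjusted p between 0.04 and 0.05 and another 231 genes stood between 0.05 and 0.06. All 409 kept their direction and an unadjusted p under 0.05 in each of the 26 fits without 1 mouse. These fits share all but 1 mouse with the fit that chose the genes, so this is not separate support. Fos, Acly and Iars passed the adjusted threshold in all 26, Sp3os in 22, Dusp1 in 21, and Tom1l2 and Gpatch2l in 20. With log2 library size as a covariate 0 genes passed and 1114 had an unadjusted p under 0.05, and without batch 2 the numbers were 0 and 1370. The direction of all 409 genes was kept in both. Replicate numbers are the order of the samples in the series.

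**Figure D1:**
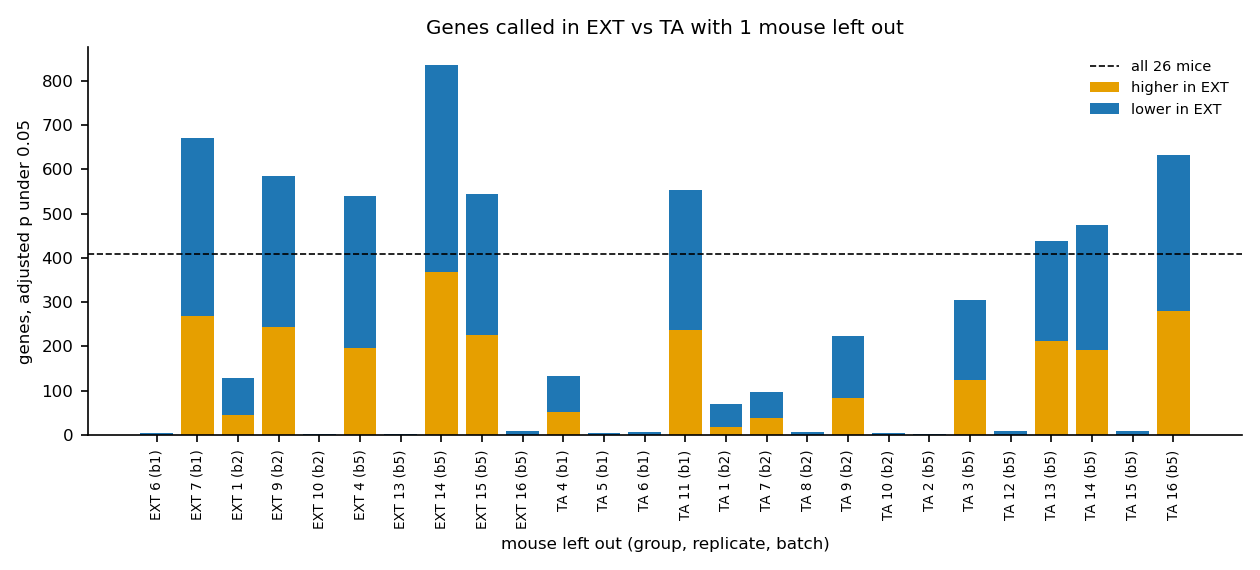
Bars give the number of genes with an adjusted p under 0.05 in EXT against TA, higher and lower in EXT, when each of the 26 mice is left out in turn, and the dashed line gives the count for all mice. The count runs from 3 to 835 against 409 with every mouse.

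Immediate early genes were lower in EXT than in TA mice. Of 19 measured, 17 were lower, 4 of them fell past the adjusted threshold (2.84% of all genes did) and none rose, and the median difference was -0.27. The list's median was -0.39, -0.53 and -0.17 in batches 1, 2 and 5. In the mean over the list, all 10 EXT mice were under the TA median of their batch.

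Fos, the activity-induced partner in the AP-1 transcription factor (chr12:85473890-85477273, GRCm38), ranged from 3.76 to 5.50 log2 cpm (median 4.73) in the 16 TA mice and from 3.65 to 4.33 (median 3.89) in the 10 EXT mice. The highest EXT mouse lay below the TA median, and every EXT mouse lay below the TA median of its batch. Fos fell by 0.89 ± 0.14 (SE) on the log2 scale (95% interval -1.18 to -0.60, adjusted p = 0.00998), a change of -45.9%. Its differences were -0.65 in batch 1, -1.14 in batch 2 and -0.83 in batch 5, so that no batch departed from the direction.

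Dusp1, the MAP kinase phosphatase whose promoter holds the CREB palindrome, ranged from 5.14 to 6.02 log2 cpm (median 5.37) in the 16 TA mice and from 4.46 to 5.58 (median 4.90) in the 10 EXT mice. It fell by 0.48 ± 0.09 (adjusted p = 0.029), and all 10 EXT mice lay below the TA median of their batch, although the difference was -0.12 in batch 1 against -0.53 and -0.60 in batches 2 and 5. Junb, another AP-1 subunit, ranged from 5.92 to 7.12 log2 cpm (median 6.56) in the 16 TA mice and from 5.49 to 7.01 (median 5.93) in the 10 EXT mice. It fell by 0.52 ± 0.11 (adjusted p = 0.0327), with 1 EXT mouse of batch 1 above the TA median. Arc ranged from 5.18 to 6.96 log2 cpm (median 6.01) in the 16 TA mice and from 4.83 to 6.28 (median 5.24) in the 10 EXT mice and fell by 0.63 ± 0.19 (adjusted p = 0.0499), by close to the same amount in each batch. Arc sat at the threshold and kept its call in 5 of 26 fits without 1 mouse.

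Other members did not pass. Jun differed by -0.54 ± 0.18, adjusted p = 0.0632, Nr4a1, a nuclear receptor induced by activity, by -0.41 ± 0.18, adjusted p = 0.15, and the secreted peptide precursor Vgf by -0.38 ± 0.17, adjusted p = 0.173. Egr1 was split between batches (-0.74 in batch 1, -0.62 in batch 2 and 0.16 in batch 5), with a model estimate of -0.27 ± 0.16, adjusted p = 0.3. Of the regulators that act upstream, Creb1 itself differed by -0.10 ± 0.09, adjusted p = 0.482, and of 16 genes for the CREB family, its coactivators and cAMP-dependent kinase subunits, only Prkar1b passed (the neuronal RIβ regulatory subunit, -0.37 ± 0.10, adjusted p = 0.0419), with a list median of -0.05.

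**Figure D2:**
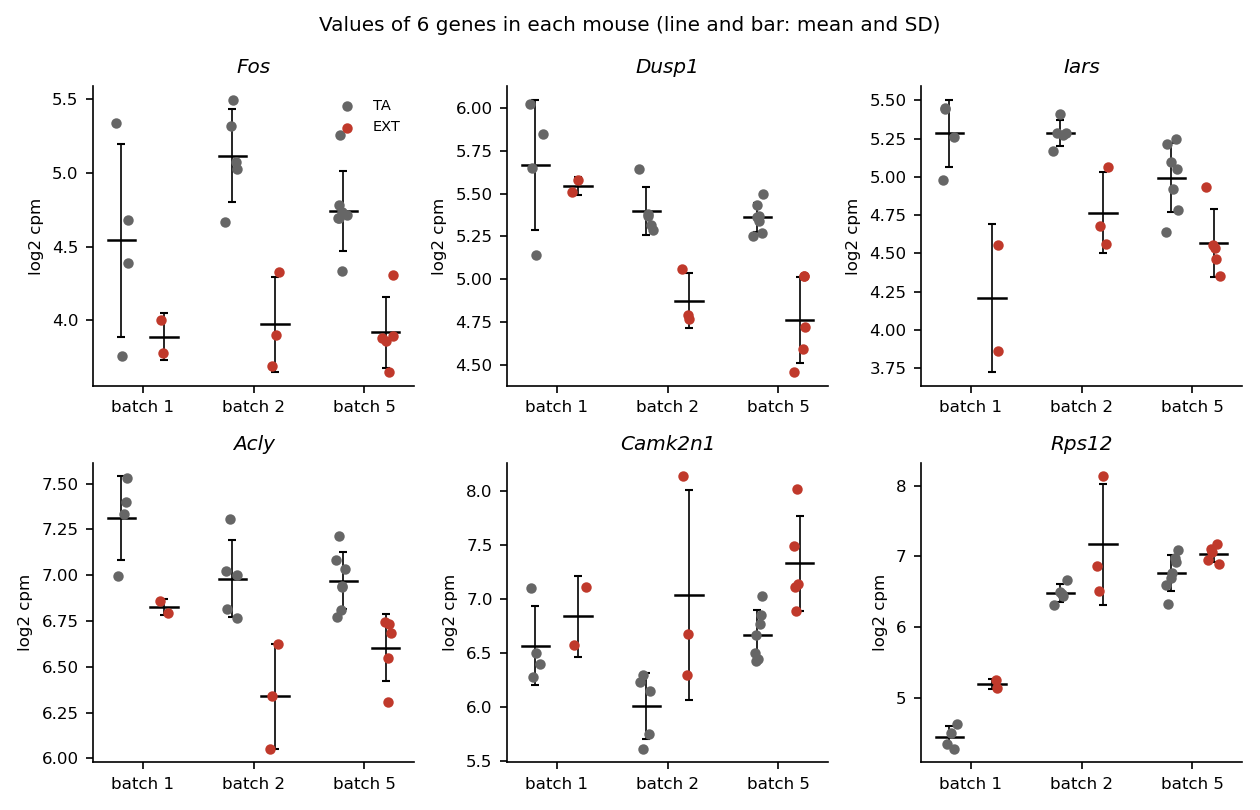
Log2 cpm of Fos, Dusp1, Iars, Acly, Camk2n1 and Rps12 in each TA and EXT mouse, drawn by batch, with the line and bar as the group mean and SD within the batch. Fos, Dusp1, Iars and Acly lie lower, and Camk2n1 and Rps12 higher, in EXT mice of each batch.

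Genes of the glucocorticoid receptor complex and its targets were lower on balance. Of 21 measured, 15 were lower, 5 of them fell (2.84% of all genes did) and none rose. The list median was -0.23 (-0.12, -0.34 and -0.14 in batches 1, 2 and 5). Besides Dusp1, which is on this list as a receptor target too, the genes that fell were Fkbp4, the cochaperone that carries the receptor towards the nucleus (-0.35 ± 0.09, adjusted p = 0.0421), Stip1, which links Hsp70 to Hsp90 (-0.34 ± 0.09, adjusted p = 0.0421), the ubiquitin ligase Pja1 (-0.51 ± 0.13, adjusted p = 0.0348) and the histone deubiquitinase Usp22 (-0.52 ± 0.13, adjusted p = 0.0355). The last pair are not receptor chaperones. Dusp1, Fkbp4, Fkbp5, Pja1 and Usp22 are on the list also because the study drew attention to them in these mice. Neither their direction nor the number of listed genes that fell is therefore independent evidence, and that number cannot be weighed against the share of all genes. Of the 5 that fell, only Stip1 was not chosen in this way. Pja1 and Usp22 are counted again among the ubiquitin genes below. Hsp90ab1 (-0.30 ± 0.10, adjusted p = 0.0634) and the classical receptor target Fkbp5 (-0.24 ± 0.10, adjusted p = 0.125) were lower without passing.

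Several cytosolic chaperones, most of them of the Hsp70 and Hsp110 group, fell. Of 62 heat shock, DnaJ and chaperonin genes, 39 were lower, 5 fell (2.84% of all genes did) and 1 rose. The 5 were the Hsp110 nucleotide exchange factors Hspa4l (-0.42 ± 0.08, adjusted p = 0.0327), Hsph1 (-0.37 ± 0.08, adjusted p = 0.0327) and Hspa4 (-0.48 ± 0.12, adjusted p = 0.0342), the Hsp70 relative Hspa12a (-0.41 ± 0.09, adjusted p = 0.0327) and Cct3, a subunit of the chaperonin that folds actin and tubulin (-0.31 ± 0.09, adjusted p = 0.0453). Dnajc19, of the mitochondrial import motor, rose (0.34 ± 0.10, adjusted p = 0.0444). Chaperones of the endoplasmic reticulum and the unfolded protein response gave a different picture, with 11 of 22 higher, no call and a median of 0.00.

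Transcript length moved with the difference between groups, and family results are therefore given with it. Among the 474 genes whose longest annotated transcript has up to 1000 bases, 93.2% were higher in EXT (median 0.22), 69 rose and none fell. The 4916 genes of over 1000 and up to 4000 bases had a median of 0.01, with 89 that rose and 119 that fell, and the 2776 longer genes a median of -0.04, with 14 and 114. Without ribosomal protein genes, the 427 short genes still had a median of 0.21. The slope of the values on log2 length, taken in each mouse, was 0.083 to 0.158 in EXT against 0.186 to 0.280 in TA mice of batch 1, with overlap between groups in batches 2 and 5. With this slope as a covariate, 0 genes passed the adjusted threshold by limma and 1528 had an unadjusted p under 0.05. Its part in the results was not tested, and the median of a list is, for the main families, also given less the median of all genes of the same length class.

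**Figure D3:**
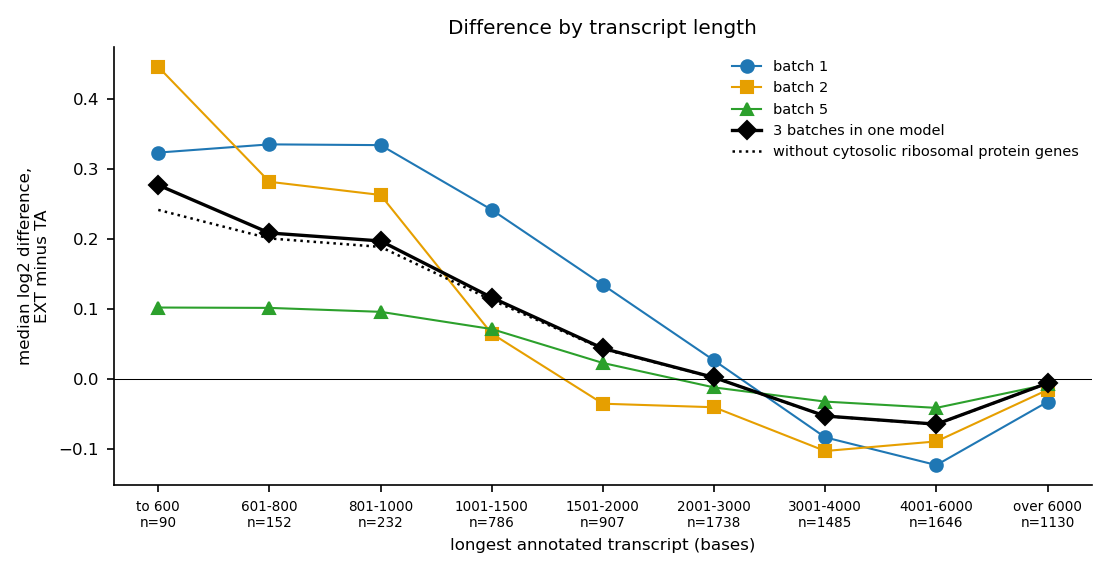
Median log2 difference (EXT minus TA) of genes grouped by transcript length in bases, in each batch, in the model and without ribosomal protein genes. In the model the shortest genes stand highest and the classes above 3000 bases have medians below 0.

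The machinery of translation split by function. Ribosomal protein genes were higher in EXT mice and aminoacyl-tRNA synthetases, which load amino acids onto tRNA, were lower. Of 81 cytosolic ribosomal protein genes, 78 were higher, 34 rose (2.15% of all genes did) and none fell, with a median of 0.27 (0.27, 0.42 and 0.18 in batches 1, 2 and 5). Relative to genes of the same length the median was 0.07. Of 23 synthetase genes, 19 were lower, 6 fell (2.84% of all genes did) and none rose. Their median was -0.20 (-0.33, -0.24 and -0.08 in batches 1, 2 and 5), and the value relative to genes of the same length was -0.20.

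Iars, the isoleucyl-tRNA synthetase (chr13:49682100-49734267), ranged from 4.64 to 5.45 log2 cpm (median 5.23) in the 16 TA mice and from 3.87 to 5.06 (median 4.55) in the 10 EXT mice. Every EXT mouse was below the TA median of its batch, and Iars fell by 0.60 ± 0.10 (adjusted p = 0.0164), with differences of -1.08 in batch 1, -0.52 in batch 2 and -0.43 in batch 5. Aars (alanine, -0.50 ± 0.11, adjusted p = 0.0338), Wars (tryptophan, -0.44 ± 0.11, adjusted p = 0.0368), Vars (valine, -0.44 ± 0.13, adjusted p = 0.0495), Cars (cysteine, -0.35 ± 0.09, adjusted p = 0.0351) and Sars (serine, -0.24 ± 0.07, adjusted p = 0.0477) also fell. Of the 11 synthetases of mitochondria, 9 were lower, with a median of -0.13 and no call. Of 15 ATF4 and amino acid response genes, the leucine sensor Sesn2 (-0.48 ± 0.11, adjusted p = 0.0327) and Asns (-0.32 ± 0.09, adjusted p = 0.0411), with its ATF4 element, fell. The other 13 did not pass, and the list's median was -0.02.

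Rps12, a protein of the small ribosomal subunit, ranged from 4.29 to 7.09 log2 cpm (median 6.48) in the 16 TA mice and from 5.15 to 8.13 (median 6.92) in the 10 EXT mice. It rose by 0.49 ± 0.12 (adjusted p = 0.0342), and all 10 EXT mice were above the TA median of their batch. Rps29 (0.46 ± 0.10, adjusted p = 0.0327) and Rpl19 (0.20 ± 0.06, adjusted p = 0.0468) are further examples, of similar or smaller size. Many ribosomal protein genes have processed pseudogenes that share their reads, and how such reads were assigned is not given in the sources used here. Mitochondrial ribosomal proteins were higher in 63 of 77, with 4 that rose, Mrpl33 (0.36 ± 0.08, adjusted p = 0.0327) and Mrps18c (0.35 ± 0.08, adjusted p = 0.0327) among them, but their median of 0.10 became 0.00 relative to genes of the same length. Initiation and elongation factors were divided, 29 of 58 being higher, and Eef1b2, a subunit of the exchange factor for eEF1A, was the 1 that passed (0.29 ± 0.07, adjusted p = 0.0338).

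**Figure D4:**
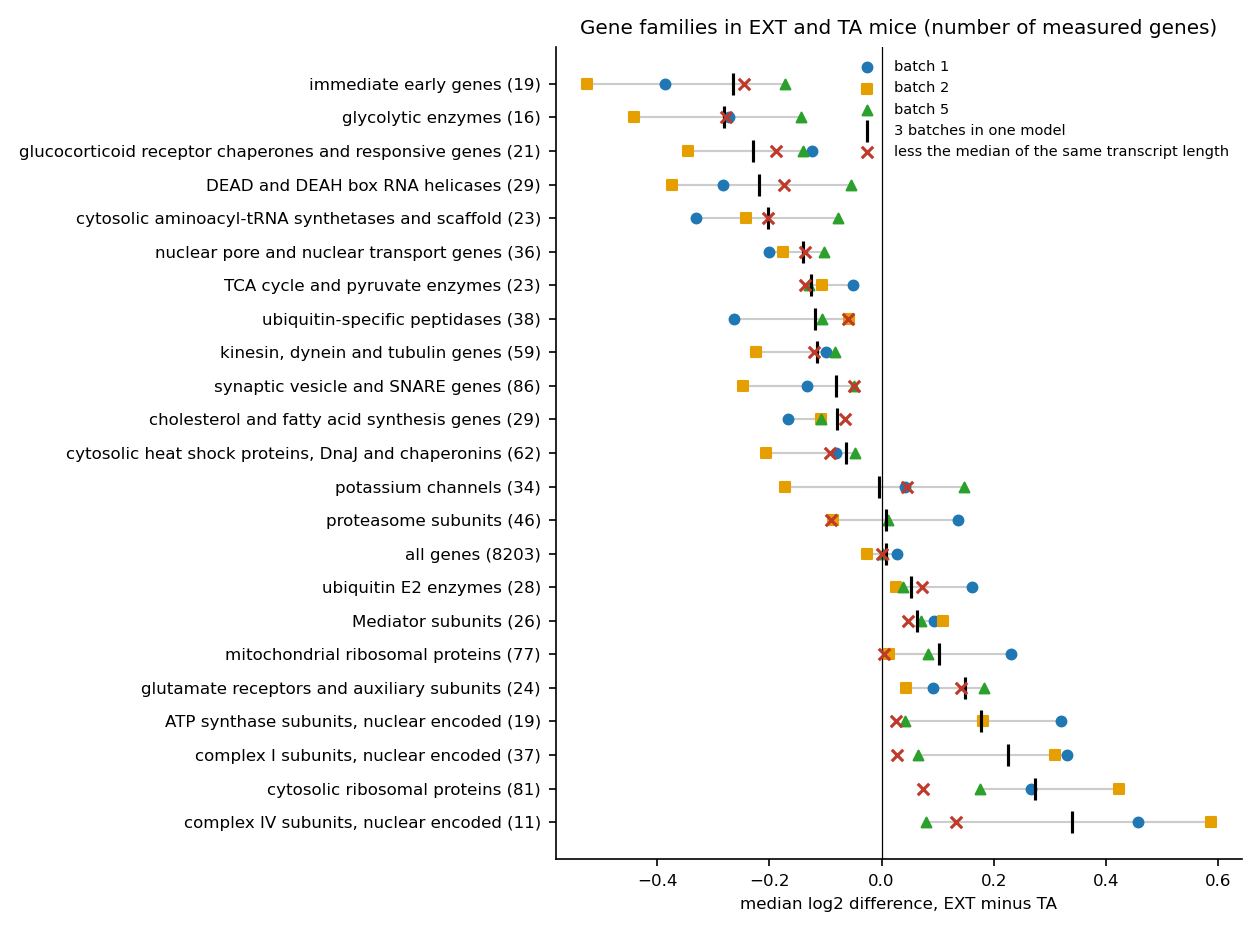
Median log2 difference (EXT minus TA) of gene families in each batch, in the model, and less the median of genes of the same length class. Ribosomal proteins and complexes I and IV lie above 0, and immediate early genes, synthetases and glycolytic enzymes below it, in each batch. Less the same length, complex I lies at 0.03 and cytosolic ribosomal proteins at 0.07.

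Genes of energy metabolism were also divided. Most enzymes of glycolysis were lower in EXT mice. Most subunits of the respiratory chain encoded in the nucleus were higher, but so were 93.0% of the 427 short genes outside the cytosolic ribosome. Relative to genes of the same length, complex IV stood highest among the complexes and the others were close to 0. For complex IV, 11 of 11 subunits were higher and Cox7c (0.40 ± 0.10, adjusted p = 0.0368) and Cox6a1 (0.38 ± 0.11, adjusted p = 0.0499) rose, with a median of 0.34 that was 0.13 relative to genes of the same length. For complex I, 33 of 37 were higher and Ndufb9 (0.36 ± 0.10, adjusted p = 0.043) and Ndufa2 (0.33 ± 0.10, adjusted p = 0.0489) rose, with a median of 0.23 (0.33, 0.31 and 0.06 in batches 1, 2 and 5) that was 0.03 relative to the same length. Batch 5, which holds 12 of the 26 mice, thus gave the smallest difference for complexes I (0.06) and IV (0.08).

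Members of the other complexes were divided. For ATP synthase, 17 of 19 subunits lay above 0, and their median was 0.18 that was 0.03 relative to genes of the same length. The accessory subunit Usmg5 rose (0.34 ± 0.08, adjusted p = 0.0342) and the catalytic-head subunit Atp5a1 fell (-0.34 ± 0.09, adjusted p = 0.042). In complexes II and III, 10 of 14 were higher without a call, with a median of 0.12 that became 0.0052 relative to the same length, the small subunits Uqcrh (0.33 ± 0.12, adjusted p = 0.0957) and Uqcr10 (0.34 ± 0.13, adjusted p = 0.106) lying above 0 and the large Sdha (-0.23 ± 0.07, adjusted p = 0.0572) and Uqcrc1 (-0.24 ± 0.08, adjusted p = 0.0769) below it. The 8 transcripts encoded in mitochondria were divided by batch, with medians of -0.32, 2.51 and -0.22 in batches 1, 2 and 5 and no call. The high value of batch 2 goes with EXT replicate 1, without which their median of 0.51 became -0.10.

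Glycolytic enzymes were lower in 15 of 16, with a median of -0.28 (-0.27, -0.44 and -0.14 in batches 1, 2 and 5). Relative to genes of the same length the median stayed -0.28, and 4 of the 16 fell (2.84% of all genes did). They were Pfkm (-0.38 ± 0.10, adjusted p = 0.0346) and Pfkl (-0.33 ± 0.10, adjusted p = 0.0499), which catalyse the committed step, Hk1, which phosphorylates glucose (-0.34 ± 0.10, adjusted p = 0.0444), and Ldha, which makes lactate (-0.35 ± 0.10, adjusted p = 0.0478). Of 23 TCA cycle and pyruvate genes, 21 were lower, and Pdha1, which admits pyruvate to the cycle, fell (-0.28 ± 0.08, adjusted p = 0.0428). Got2 (-0.37 ± 0.09, adjusted p = 0.0338) and Slc25a12 (-0.23 ± 0.07, adjusted p = 0.0488), parts of the malate-aspartate shuttle and not on this list, fell as well. Slc25a12 was the 1 call among the solute carrier genes, of which 64 were higher and 59 lower.

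Acly, which makes cytosolic acetyl-CoA for lipid synthesis and histone acetylation (chr11:100476353-100528000), ranged from 6.77 to 7.53 log2 cpm (median 7.01) in the 16 TA mice and from 6.05 to 6.86 (median 6.65) in the 10 EXT mice. The groups do not overlap within any batch, and Acly fell by 0.48 ± 0.08 (adjusted p = 0.0164), with differences of -0.49 in batch 1, -0.64 in batch 2 and -0.37 in batch 5. Hmgcs1, of the cholesterol pathway, also fell (-0.53 ± 0.12, adjusted p = 0.0327). Of 29 cholesterol and fatty acid synthesis genes, 22 were lower, with a median of -0.08.

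**Figure D5:**
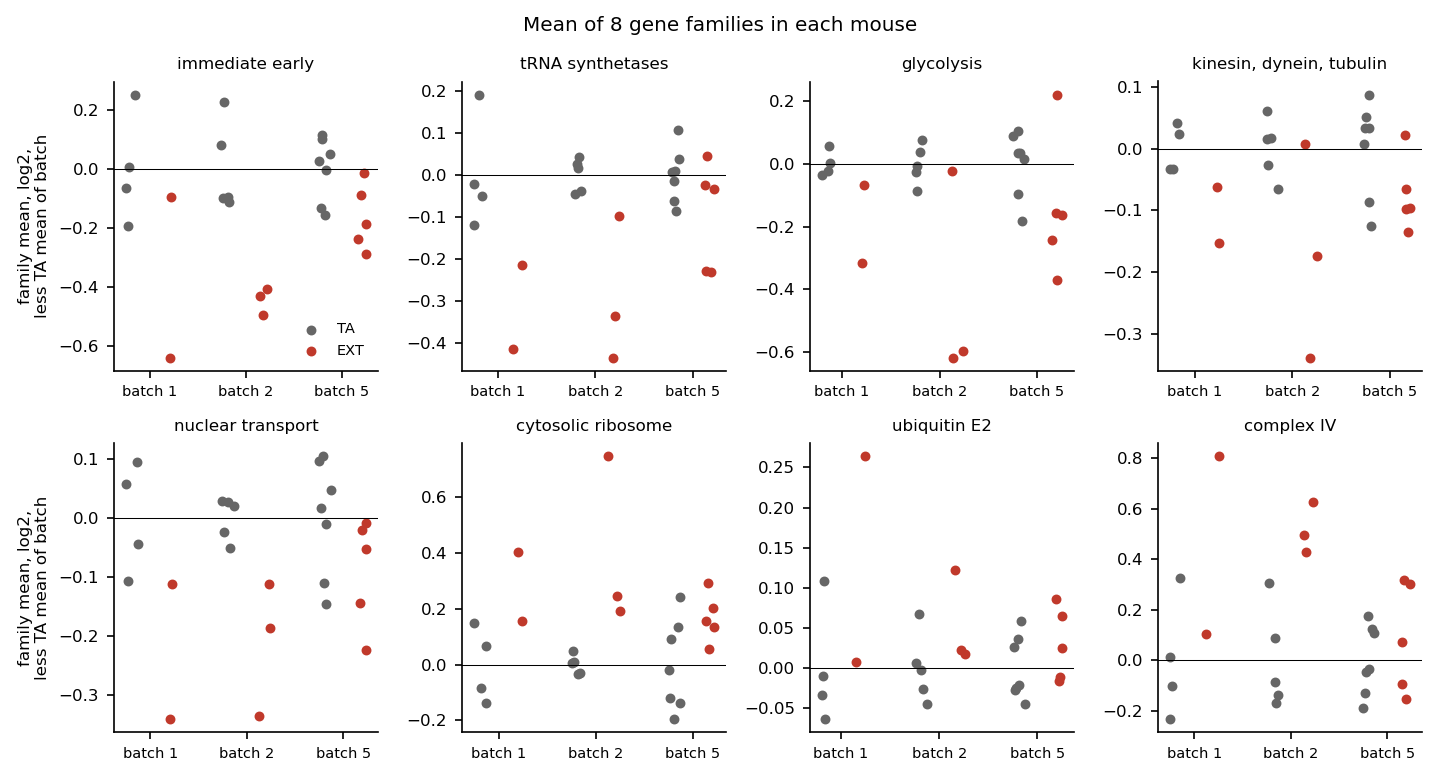
Mean of 8 gene families in each mouse, as log2 difference from the TA mean of its batch. In immediate early genes all 10 EXT mice lie below, and in ribosomal proteins all 10 lie above, the TA median of their batch.

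In the ubiquitin system, several enzymes that remove ubiquitin fell. Of 38 ubiquitin-specific peptidases, 28 were lower, with a median of -0.12 that was -0.06 relative to genes of the same length. In this list 6 genes fell (2.84% of all genes did) and none rose. Besides Usp22 they included Usp19 (-0.65 ± 0.17, adjusted p = 0.0368), Usp5, which recycles free ubiquitin chains (-0.38 ± 0.08, adjusted p = 0.0327), and Usp33 (-0.40 ± 0.11, adjusted p = 0.0421). Of 149 ligase genes, 89 were lower and 8 fell (2.84% of all genes did), with a median of -0.05 that was -0.03 relative to the same length. Among the 8 were Pja1, its relative Pja2 (-0.36 ± 0.09, adjusted p = 0.0368) and Itch (-0.28 ± 0.08, adjusted p = 0.043). Outside these lists, the cullin exchange factor Cand1 (-0.45 ± 0.11, adjusted p = 0.0348) and the activating enzyme Uba1 (-0.38 ± 0.11, adjusted p = 0.046) fell too.

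By contrast, 22 of 28 E2 conjugating enzymes were higher, with a list median of 0.05 that was 0.07 relative to genes of the same length. Ube2m, whose substrate is the ubiquitin-like protein NEDD8 (0.30 ± 0.08, adjusted p = 0.0453), and Ube2r2 (0.29 ± 0.08, adjusted p = 0.0453) rose. Of 46 proteasome genes 25 lay above 0, the list median being 0.01 that was -0.09 relative to the same length, and the 2 that rose, Psmg4 (0.32 ± 0.07, adjusted p = 0.0327) and Psme2 (0.28 ± 0.07, adjusted p = 0.0368), encode an assembly chaperone and an activator subunit. In the lysosomal list, of which 22 of 39 were higher, the proton pump subunits Atp6v1a (-0.42 ± 0.12, adjusted p = 0.0478) and Atp6v1b2 (-0.36 ± 0.08, adjusted p = 0.0338) fell and 1 gene rose. Autophagy genes were lower in 17 of 29, with 1 call.

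RNA helicases of the DEAD and DEAH box families were lower in 26 of 29, with a median of -0.22 that was -0.17 relative to genes of the same length. Dhx30, which acts on mitochondrial RNA, fell (-0.41 ± 0.10, adjusted p = 0.0338), as did Ddx24 (-0.32 ± 0.08, adjusted p = 0.0397) and Ddx27 (-0.30 ± 0.08, adjusted p = 0.0453), helicases of ribosome assembly. Core spliceosome genes were divided, 27 of 61 being higher, with 4 that rose and 3 that fell. The small Sm proteins Snrpe (0.29 ± 0.07, adjusted p = 0.0368) and Snrpg (0.26 ± 0.08, adjusted p = 0.0475) rose and Prpf6 (-0.53 ± 0.15, adjusted p = 0.0462), Prpf18 (-0.36 ± 0.08, adjusted p = 0.0328) and Aqr (-0.49 ± 0.14, adjusted p = 0.043) fell. Of 59 hnRNP and SR proteins, 40 were lower, with 1 that rose and 1 that fell. Of the adenosine-to-inosine editing enzymes, Adar fell (-0.57 ± 0.13, adjusted p = 0.0327) and Adarb1 did not pass (0.17 ± 0.14, adjusted p = 0.449).

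Among 97 chromatin genes, 56 were lower and 2 fell, which is not above the 2.84% of all genes that fell. The 2 were the maintenance DNA methyltransferase Dnmt1 (-0.72 ± 0.17, adjusted p = 0.0338) and the histone acetyltransferase Kat7 (-0.38 ± 0.11, adjusted p = 0.0478). Subunits of Mediator, the bridge between transcription factors and RNA polymerase II, were higher in 21 of 26. Med28 (0.35 ± 0.07, adjusted p = 0.0327) and Med8 (0.25 ± 0.07, adjusted p = 0.043) rose, and the list's median was 0.06.

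Genes of vesicle release and recycling were lower on balance in EXT mice. Of 86 synaptic vesicle and SNARE genes, 59 were lower, 12 fell (2.84% of all genes did) and none rose, with a median of -0.08 (-0.13, -0.25 and -0.05 in batches 1, 2 and 5) that was -0.05 relative to genes of the same length. They act at successive steps of the vesicle cycle. Syn1 tethers the reserve pool (-0.44 ± 0.13, adjusted p = 0.0482), Nsf (-0.45 ± 0.10, adjusted p = 0.0327) and its partner Napg (-0.30 ± 0.09, adjusted p = 0.0471) take spent SNARE complexes apart, and Stxbp5 restrains release (-0.38 ± 0.09, adjusted p = 0.0344). In endocytosis, Snap91, a clathrin adaptor (-0.44 ± 0.11, adjusted p = 0.0338), Synj1, which uncoats vesicles (-0.30 ± 0.08, adjusted p = 0.0355), and Sh3gl2 (-0.28 ± 0.08, adjusted p = 0.0495) fell, as did Amph, counted outside the list (-0.38 ± 0.10, adjusted p = 0.0355). Dnm3, a dynamin, fell in the pooled estimate (-0.37 ± 0.10, adjusted p = 0.0398), but its differences of -0.36 in batch 1, -0.83 in batch 2 and -0.06 in batch 5 varied by batch.

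Motor and tubulin genes followed the same direction, 43 of 59 being lower and 7 falling (2.84% of all genes did). Their median of -0.12 was -0.12 relative to genes of the same length. The neuronal tubulin Tubb3 (-0.41 ± 0.09, adjusted p = 0.0327), Tubb2a (-0.48 ± 0.14, adjusted p = 0.0468), Tuba1b (-0.25 ± 0.07, adjusted p = 0.046), the dynein light intermediate chain Dync1li1 (-0.32 ± 0.09, adjusted p = 0.0419) and the kinesin Kif3b (-0.28 ± 0.08, adjusted p = 0.0469) are among those that fell, and the adaptor of Kif3b, Kifap3, fell outside the list (-0.45 ± 0.11, adjusted p = 0.0348). Tubulin genes resemble each other closely, so reads may be divided among them. Of 36 nuclear transport genes, 32 were lower, with a median of -0.14 that was -0.14 relative to the same length. The importin Kpna1 (-0.49 ± 0.12, adjusted p = 0.0348) and the Ran GTPase-activating protein Rangap1 (-0.36 ± 0.09, adjusted p = 0.0355) fell. In the mean over either list, all 10 EXT mice were under the TA median of their batch.

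Receptors and channels gave few differences. No call was made among 34 potassium channel, 24 glutamate receptor or 15 GABA and glycine receptor genes by limma. At an unadjusted p under 0.05, 4 glutamate receptor genes were higher (11.7% of all genes were) and 0 lower, with the AMPA receptor auxiliary subunit Cacng2 at 0.41 ± 0.18, adjusted p = 0.138, and the median over that list was 0.15. Among scaffolds, Dlg3, which encodes SAP102, fell (-0.56 ± 0.12, adjusted p = 0.0327) and so did Pick1, which binds AMPA receptors (-0.30 ± 0.07, adjusted p = 0.0338), whereas Dlg4, the gene of PSD-95, stood at 0.49 ± 0.17, adjusted p = 0.074. No call was made among 49 adhesion genes, and 1 of 31 calcium, sodium, HCN and chloride channel genes fell.

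Camk2n1 and Ppp1r1a rose. Camk2n1, an endogenous inhibitor of CaMKII, ranged from 5.61 to 7.10 log2 cpm (median 6.43) in the 16 TA mice and from 6.29 to 8.14 (median 7.11) in the 10 EXT mice. It rose by 0.68 ± 0.17 (adjusted p = 0.0348), and all 10 EXT mice were above the TA median of their batch, with differences of 0.27 in batch 1, 1.03 in batch 2 and 0.66 in batch 5. The kinase subunit Camk2d was lower (-0.50 ± 0.16, adjusted p = 0.0598) without passing. Ppp1r1a, inhibitor 1 of protein phosphatase 1 and a target of cAMP-dependent kinase, ranged from 6.78 to 7.64 log2 cpm (median 7.32) in the 16 TA mice and from 7.28 to 8.56 (median 7.66) in the 10 EXT mice and rose (0.50 ± 0.13, adjusted p = 0.0355). Both were the only calls in their lists of 12 CaMKII and 67 phosphatase genes. The postsynaptic protein dendrin (Ddn, 0.58 ± 0.17, adjusted p = 0.0494) and the cell survival gene Bcl2l2 (0.61 ± 0.16, adjusted p = 0.0368) rose by similar amounts. Signalling lists were otherwise quiet, with 1 gene that rose and Dusp1 that fell among 49 of the MAP kinase cascade and no call among 36 G protein and 34 phosphoinositide and mTOR genes.

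Genes of cell identity gave 1 call. It came from the list of 22 GABA and central amygdala neuron markers, in which 14 genes stood below 0 and 8 above it. That list's median, -0.15, did not keep its sign by batch (-0.20, -0.47 and 0.08 in batches 1, 2 and 5). In males alone the list median was 0.06. Gad1, the main GABA-synthesising enzyme, ranged from 9.00 to 9.78 log2 cpm (median 9.38) in the 16 TA mice and from 8.18 to 9.44 (median 9.08) in the 10 EXT mice and fell (-0.41 ± 0.11, adjusted p = 0.0368), and Gad2 did not pass (-0.24 ± 0.09, adjusted p = 0.104). Crh, the gene that drives Cre, differed by -0.32 ± 0.22, adjusted p = 0.383. Among 21 neuropeptide and precursor processing genes, 14 were lower and none passed. Nor did any of 16 astrocyte, 13 oligodendrocyte, 7 glutamatergic, 4 choroid plexus, 2 endothelial and 1 microglial markers measured.

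Of the 19 circadian clock genes, 12 were higher, and Csnk1d, the kinase that phosphorylates PER proteins, was the 1 that passed (-0.35 ± 0.08, adjusted p = 0.0327). Outside the lists, Gpatch2l (-0.56 ± 0.11, adjusted p = 0.029) and the endosomal sorting gene Tom1l2 (-0.40 ± 0.08, adjusted p = 0.029) fell and Sp3os rose (0.48 ± 0.09, adjusted p = 0.029). Sp3os is antisense to Sp3, and whether reads were counted by strand is not given in the sources used here, so the reads of both cannot be told apart.

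The difference between groups varied by batch in 111 genes (1.35%, test of the interaction, adjusted p under 0.05), 7 of which are among the 409. In 74 of the 111 the difference was higher in batch 2 than in both others, and 74 were higher in EXT in batch 2 and lower in batch 5. Batch 2 is the batch in which library sizes did not overlap and that holds EXT replicate 1. The median EXT minus TA difference of the choroid plexus markers was 2.40 there, against -1.21 and -2.02 in batches 1 and 5. The part of each in the 111 genes was not tested. No gene differed by sex in its response at an adjusted p of 0.05 by limma, whereas 1186 genes had an unadjusted p under 0.05 and the smallest adjusted p was 0.0507.

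Fear-conditioned mice (FC) of the same batches, 12 in all, received the tones with shocks and were not extinguished, so they share the shock with EXT mice. Like TA mice, they stayed in the holding room and were killed after the session of the first day. FC and EXT mice were therefore sampled on different days and after different last sessions. No gene differed between EXT and FC mice at an adjusted p of 0.05 by limma, with a smallest adjusted p of 0.209, while 305 genes were higher and 316 lower at an unadjusted p under 0.05. Likewise 0 genes passed for FC against TA (smallest adjusted p 0.151), where 1093 had an unadjusted p under 0.05. These contrasts share mice with EXT against TA, so values are set side by side without a test. Fos stood at -0.75 in EXT minus FC and -0.14 in FC minus TA, Arc at -0.77 and 0.12, and Ppp1r1a at 0.47 and 0.03. For these 3 genes FC mice lay nearer to TA than to EXT mice. Aars stood at -0.12 and -0.37, Usp19 at -0.13 and -0.51, and Adar at -0.14 and -0.42, so that FC mice lay nearer to EXT mice.

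Family medians in both contrasts are given in the same order. Immediate early genes had -0.16 in EXT minus FC and -0.14 in FC minus TA, synthetases -0.12 and -0.11, ribosomal proteins 0.11 and 0.15, and glycolytic enzymes -0.12 and -0.16. FC values therefore lay between those of TA and EXT mice for each of these 4 families.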

How the data were processed

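TRAP-seq values came from 44 mice, of which 26 are described here (and 12 FC mice for comparison). Per the submitters' processing notes, reads were trimmed with Trimmomatic 0.36 and aligned with STAR to GRCm38, and the authors deposited log2 cpm values made with edgeR and limma (voom), without pooling mice. The authors kept genes that passed a minimum in all mice and removed outlying samples. All 360932 values could be written as whole reads within 1e-06 on the log2 scale, with at least 28 reads per value. Each gene was fitted with limma 3.58.1 in R 4.3.3, with batch and sex as factors and Benjamini-Hochberg adjustment over 8203 genes, after a test on simulated data. P-values cover the spread between separate mice. Intervals are 95%. Transcript lengths were taken from GENCODE for 99.55% of genes. The members, the gene lists and the tests were chosen with earlier results of these data known. Named genes passed the threshold, were the 10 with the smallest p in each direction or up to 4 with the smallest p in each list, or belonged to the immediate early and glucocorticoid lists, besides Crh and Creb1. Alternatives changed the mice, covariates, weights, scaling, offset and filter. Some genes are not reported here.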

Additional observations from a re-analysis of the deposited data

Results flagged for a closer look

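In the 10 EXT mice, the values of 122 genes and the library size were examined, and 10 of these held a mouse far from the others by Dixon's criterion, where chance gives about 1 in 20 groups, here 6.15. The 10 mice come from 3 batches of different level, so a flag can reflect the batch, and the rate of 1 in 20 assumes a single uniform group. EXT replicate 7 (batch 1) was the highest for Junb (7.01 log2 cpm), Vgf (7.05), Fkbp5 (6.73), Pfkl (8.66), Usp5 (8.13) and Csnk1d (7.75). For Junb, Vgf, Fkbp5, Pfkl and Usp5 it lay within the TA range of batch 1 (Vgf 6.96 to 7.31, Usp5 8.01 to 8.46). EXT replicate 1 (batch 2), the mouse with the most mitochondrially encoded transcripts, was the highest for Ube2m (8.66) and Ube2r2 (8.15) and the lowest for Tubb3 (7.27) and Crh (3.49). For Ube2m, Ube2r2 and Tubb3 it lay outside the TA range of batch 2 (Tubb3 8.41 to 8.60).

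The difference between EXT and TA depended on batch in 111 genes by the interaction test. Dnm3 is one of them (adjusted p = 0.0472), with differences of -0.36 in batch 1, -0.83 in batch 2 and -0.06 in batch 5.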

How the results depend on the processing

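All 409 genes, chosen by the main fit on largely the same mice, kept their direction in every alternative that tested them, but few alternatives kept the count. It became 2 with EXT and TA mice of all 5 batches, 33 with TA, FC and EXT fitted together, 0 in males alone, 3 without the batch term, 2 with array weights, 0 with library size and 0 with the length slope as a covariate (the last chosen after seeing the data, with 1528 at an unadjusted p under 0.05), 891 with the choroid plexus score as a covariate, 2 without batch 1 and 0 without batch 2. It was 325 to 593 with no sex term, voom weights, trended and robust variances, median-centring, quantile normalization, a mean log2 value of at least 5, an offset of 2 reads or without batch 5. The count at an unadjusted p under 0.05, 2056, became 1187 in males, 1330 with array weights, 1114 with library size as a covariate and 1370 without batch 2. With each mouse left out, the counts were 3 to 835 and 1576 to 2261. The count of genes that differed by batch, 111, became 66 with voom weights, 68 with trended variances and 69 at a mean of at least 5. That by sex, 0, became 1 with trended variances, 2 with median-centring, 2 with quantile normalization and 1 at a mean of at least 5. EXT against FC gave 0 in each alternative run. Egr1 turned to 0.0046 with the length slope and Crh to 0.052 in males. The causes were not tested. No paired analysis was possible because the replicate numbers follow the order of the samples and link no mice across groups.

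Among the 122 genes chosen for the text, Egr1 and Crh alone reversed under an alternative run. Over the 26 mice, genes had a median of 900.5 reads and at least 29. Batches 1, 2 and 5 hold 2, 3 and 5 EXT mice.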
